A study of Mus musculus with 8 samples.

Results

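The genes described here encode the cAMP-dependent protein kinase (PKA) and its small protein inhibitors. They are 2 catalytic subunit genes (Prkaca and Prkacb), 4 regulatory subunit genes (Prkar1a, Prkar1b, Prkar2a and Prkar2b) and 3 PKI inhibitor genes (Pkia, Pkib and Pkig). They were taken by symbol, as 9 of the 22609 gene symbols counted in each library. The set was chosen by the measured sex difference of Pkib, which was higher in males in these same libraries, and the other 8 genes were added by name as the enzyme that Pkib inhibits and its relatives. The sex difference of Pkib is therefore given as a description, with no test.

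RNA was sequenced from back-labelled neurons of the dorsal root ganglia (DRG), which hold the cell bodies of the sensory neurons of trunk and limbs. Naive young adult C57BL/6J mice received the fluorescent lectin conjugate WGA-488 in the hindpaws and thigh muscles of both sides 2 days before L3-L5 ganglia were dissociated and labelled cells were sorted in a double sort. Skin and muscle neurons are mixed in each library, so the target tissue of a neuron cannot be told. There were 4 libraries from females, which were in the estrous phase, and 4 from males, with no other treatment or allele in either group.

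In textbook terms, PKA rests as a tetramer in which a pair of regulatory subunits holds a pair of catalytic subunits silent. cAMP, made by adenylyl cyclases after a Gs-coupled receptor is activated, binds the regulatory subunits and frees the catalytic ones, which then phosphorylate their targets. In nociceptors, PKA is known for its part in sensitisation by prostaglandin E2, with the sodium channel Nav1.8 and the heat-gated channel TRPV1 among its substrates. The PKI proteins bind the freed catalytic subunit as a pseudosubstrate and carry it out of the nucleus.

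The inhibitors and the regulatory subunits hold the kinase in the same way, through a short stretch that lies in its substrate cleft. The coding bases of that stretch are shown because the inhibitors and the regulatory genes can be compared there. Each run has 30 bases, 5′ to 3′, and the capitals mark the 5 codons of the site, which begin with a pair of arginine codons. The bases were read from the GENCODE M1 transcripts on NCBIM37, the assembly also called mm9, and positions are on that build. In the PKI genes and Prkar1a the codon before the last in capitals codes for alanine, in Prkar1b for glycine, and in both type II genes for serine, which the kinase can phosphorylate.

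Pkia (chr3:7437410-7437439, plus strand): agaacaggtAGAAGAAATGCAATAcatgat
Pkib (chr10:57447970-57447999, plus strand): agggcaggcCGCCGCAATGCCTTAcccgac
Pkig (chr2:163546932-163546961, plus strand): cggacaggcCGTCGGAATGCAGTCcctgac
Prkar1a (chr11:109521412-109521441, plus strand): ggccgacggCGCCGAGGTGCTATCagtgct
Prkar1b (chr5:139584480-139584509, minus strand): gcgcgtcgcCGGCGGGGCGGTGTGagtgct
Prkar2a (chr9:108616618-108619201, plus strand, across an intron): aaatttactAGACGAGTATCAGTCtgtgca
Prkar2b (chr12:32678641-32723508, minus strand, across an intron): cggttcacaAGGCGTGCCTCGGTCtgtgca

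Among the inhibitors, Pkib shared 22 of the 30 bases with Pkig and 18 with Pkia. The type I regulatory genes shared 20 of 30 with each other, and so did the type II genes. The coding sequences of these transcripts hold 76 codons for Pkia and Pkig and 78 for Pkib before the stop, against 381 for each type I gene, 402 for Prkar2a, 416 for Prkar2b and 351 for each catalytic gene.

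The 9 genes lie on 8 chromosomes. Pkib spans 57351887 to 57460918 of chromosome 10 (plus strand), Pkia 7366604 to 7445366 of chromosome 3 (plus strand) and Pkig 163484122 to 163551894 of chromosome 2 (plus strand). Prkaca spans 86496877 to 86520344 of chromosome 8 (plus strand) and Prkacb 146392543 to 146475924 of chromosome 3 (minus strand). The regulatory genes lie on chromosome 11 (Prkar1a, 109510719 to 109530970, plus strand), chromosome 5 (Prkar1b, 139493260 to 139625955, minus strand), chromosome 9 (Prkar2a, 108594474 to 108651843, plus strand) and chromosome 12 (Prkar2b, 32643341 to 32746161, minus strand). The exons of Prkar1b overlap those of another annotated transcript, Gm15672, over 8.95% of their length on the same strand, and no other member overlaps the exons of another gene.

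Libraries held 4.80 to 7.33 M gene reads (M, 1e6 reads), so that 3 reads, taken as the limit of detection, correspond to 0.409 to 0.625 counts per 1e6 gene reads (CPM). All 9 genes stood far above this limit, with at least 170 reads in any library, and all 9 passed the expression filter. The pan-neuronal list summed to 20552 to 29411 CPM in females and 21174 to 23322 CPM in males, and satellite glia genes were also abundant, so glial RNA was present beside neuronal RNA. Female replicate 4 stood apart: the chi-square per degree of freedom of its counts against the other females was 30.1 to 44.9, while no other pair of one sex exceeded 12.1. The sex differences of members that moved most without it are therefore also given without it. No 2 libraries of one sex agreed within sampling noise, the lowest value being 2.82. Because these are bulk libraries, fewer cells of a type and less RNA per cell cannot be told apart. P-values cover the spread between these 4 and 4 libraries.

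The catalytic subunit genes were both expressed in every library. Prkaca, which encodes the alpha catalytic subunit, measured 85.6, 114, 113 and 115 CPM in female replicates 1 to 4 and 72.6, 94.6, 105 and 96.3 CPM in male replicates 1 to 4. Replicate 1 was the lowest of each sex, and the sexes overlapped. The mean was 107 ± 14.2 CPM in females and 92.0 ± 13.7 CPM in males (SD, n = 4 each). On the log2 scale the female over male difference was 0.20 ± 0.15 (SE), with a 95% interval from -0.13 to 0.52 and an adjusted p of 0.800 (edgeR quasi-likelihood test, Benjamini-Hochberg adjustment over 12518 genes). It was 0.11 without male replicate 1, 0.30 without female replicate 1 and -0.14 when the fit held a score of glial marker genes.

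Prkacb, the beta catalytic subunit gene, measured 291, 300.2, 298 and 83.0 CPM in the females and 261, 289, 283 and 272 CPM in the males. Female replicate 4 was far below the rest, and the other 7 libraries lay between 261 and 300.2 CPM. The fitted difference was -0.20 ± 0.32 on the log2 scale, with a 95% interval from -0.91 to 0.51 and an adjusted p of 0.891 (edgeR). Without female replicate 4 it was 0.088 ± 0.062, with an interval from -0.051 to 0.23 and an adjusted p of 0.608 (edgeR; 0.608 to 1 over the 17 alternatives), and the 3 remaining females, at 291 to 300.2 CPM, all lay above the males. The fitted direction for Prkacb thus turned with that library.

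The type I regulatory genes were the most abundant members. Prkar1a, the ubiquitous type I alpha subunit, measured 1338, 1271, 1263 and 729.6 CPM in females and 1376, 1299, 1313 and 1368 CPM in males. Again female replicate 4 was low, and the remaining 7 libraries overlapped between sexes. The fitted difference was -0.24 ± 0.17 on the log2 scale, with a 95% interval from -0.62 to 0.15 and an adjusted p of 0.797 (edgeR), and it was -0.069 ± 0.056 without female replicate 4.

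Prkar1b, the type I beta subunit known mainly from the nervous system, measured 1179, 1149, 1225 and 1551 CPM in females and 1217, 1195, 1165 and 1212 CPM in males. Female replicate 4 was the highest library here, in contrast to Prkar1a. The female over male difference was 0.071 ± 0.11, with a 95% interval from -0.17 to 0.31 and an adjusted p of 0.887 (edgeR), and it was -0.030 ± 0.058 without that library. The male libraries differed little among themselves, with a coefficient of variation of 1.96% for Prkar1b and 2.88% for Prkar1a.

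The type II regulatory genes, whose products dock on A-kinase anchoring proteins, were lower and more variable. Prkar2a measured 72.0, 114, 81.2 and 56.9 CPM in females and 94.96, 77.8, 83.2 and 102 CPM in males. The male values lay inside the female range. Between the sexes the difference was -0.16 ± 0.20, with a 95% interval from -0.60 to 0.28 and an adjusted p of 0.857 (edgeR). It was -0.022 ± 0.16 without female replicate 4 and -0.38 without female replicate 2.

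Prkar2b, the type II beta subunit of brain and adipose tissue, measured 119.7, 381, 284 and 136 CPM in females and 193, 160.3, 169.9 and 215 CPM in males. Among the females, replicates 2 and 3 lay above every male library and replicates 1 and 4 below every one. Its coefficient of variation was 54.2% in females and 13.3% in males. The fitted difference was 0.30 ± 0.33, with a 95% interval from -0.42 to 1.03 and an adjusted p of 0.834 (edgeR), and it was -0.056 without female replicate 2 and 0.49 without female replicate 4, so no direction can be given for Prkar2b. Of the 9 genes it had the highest coefficient of variation in females, while the highest over the lowest female was wider for Prkacb (3.61-fold) than for Prkar2b (3.18-fold).

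The inhibitor genes hold the member that chose the set. Pkib, the beta form, measured 63.4, 60.4, 50.2 and 56.4 CPM in females and 99.5, 86.0, 80.6 and 86.5 CPM in males, from 241 to 461 and 488 to 729 reads. Every female library lay below every male library, with a gap between 63.4 and 80.6 CPM. The means were 57.6 ± 5.69 CPM in females and 88.1 ± 8.01 CPM in males (SD, n = 4 each). On the log2 scale the fitted difference was -0.63 ± 0.12 (SE), or 1.55-fold higher in males. Since Pkib was chosen for this difference, no p-value is given.

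Pkia, the alpha form first known from muscle, measured 198, 207, 161 and 62.2 CPM in females and 238, 203, 195 and 192 CPM in males. The sexes overlapped, and female replicate 4 stood at 0.330 of the mean of the other females. The fitted difference was -0.42 ± 0.30, with a 95% interval from -1.08 to 0.24 and an adjusted p of 0.789 (edgeR), and without that library it was -0.15 ± 0.10.

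Pkig, the gamma form, measured 40.4, 37.8, 35.4 and 51.7 CPM in females and 57.6, 45.2, 41.8 and 47.8 CPM in males. Female replicate 4 was the highest female and lay inside the male range, while the other 3 females lay below every male. The fitted difference was -0.24 ± 0.15, with a 95% interval from -0.58 to 0.10 and an adjusted p of 0.775 (edgeR). Without female replicate 4 it was -0.36 ± 0.12, with an interval from -0.64 to -0.084 and an adjusted p of 0.355 (edgeR), the lowest of its 17 alternatives, which reached up to 1. The difference of Pkig was -0.13 without male replicate 1 and 0.0041 when the fit held a score of glial marker genes.

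**Figure D1:**
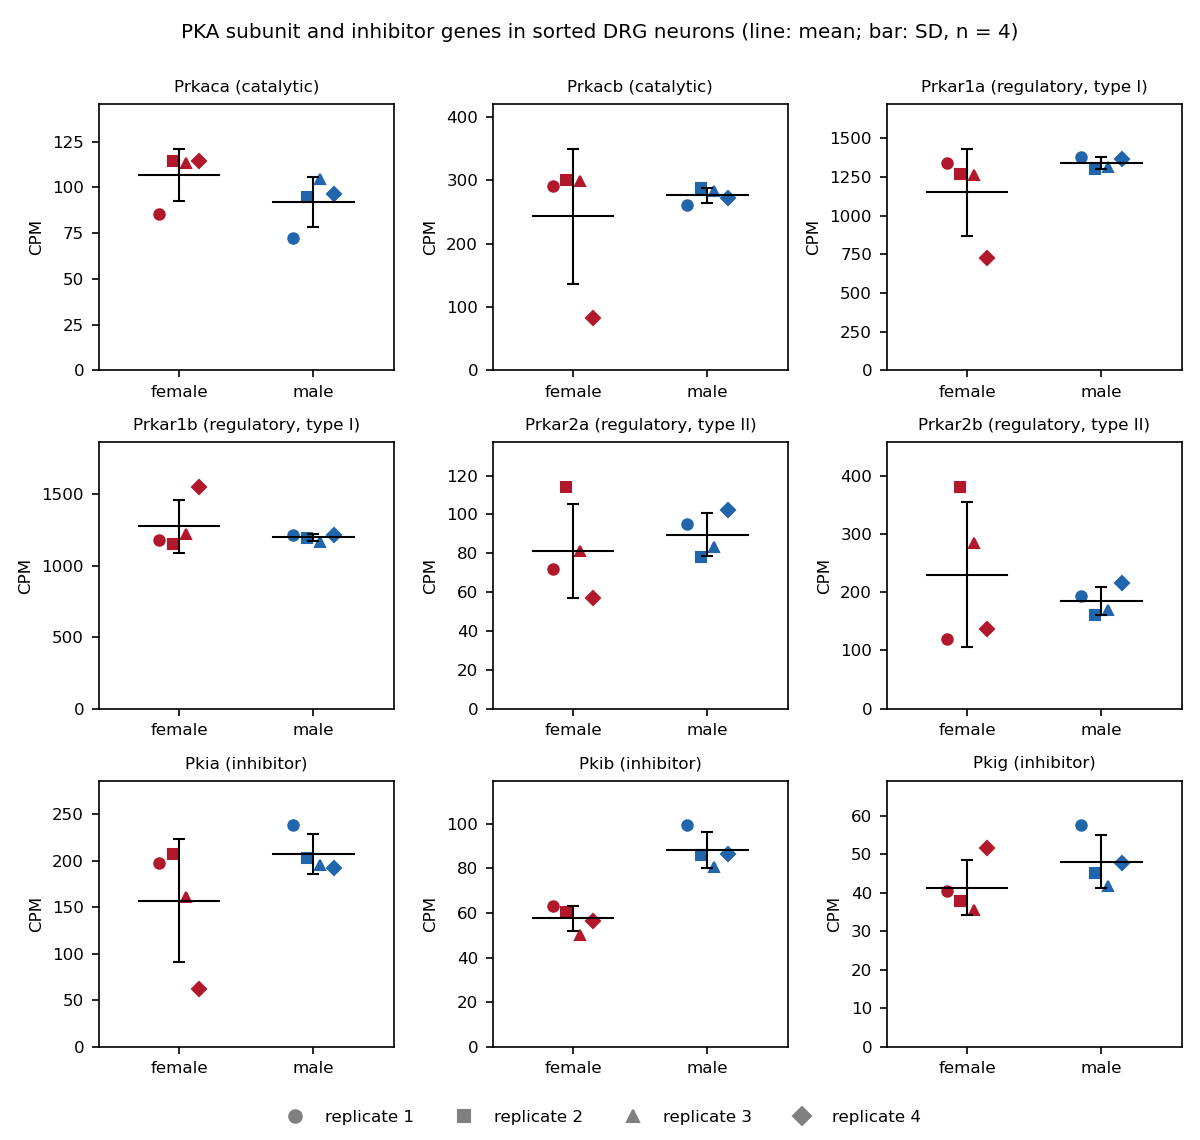
Level of each of the 9 genes in counts per 1e6 gene reads (CPM, vertical axes, each from 0) in the 4 female (red) and 4 male (blue) libraries, with 1 marker shape per replicate number and the mean ± SD of each sex as black lines. The Pkib points of the sexes do not meet (50.2 to 63.4 against 80.6 to 99.5 CPM), and the female diamond, replicate 4, lies far below its group for Prkacb, Prkar1a and Pkia.

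Read together, Pkib was the 1 member of 9 whose sexes did not overlap. Across all 12518 genes tested, 2.52% were higher in males without overlap and 3% higher in females without overlap, and since Pkib was chosen by this contrast nothing is read from its place among them. A fitted difference as far toward males as that of Pkib, or farther, was held by 1.40% of tested genes. Of the 8 other members, 0 passed an adjusted p of 0.05, against 0.0879% of all genes tested (11 genes, the sex-linked ones included), and 0 had an unadjusted edgeR p under 0.05, against 7.11% of all genes. DESeq2 and limma-voom called 0 of the 8 as well. Their median fitted difference was -0.18 on the log2 scale, beside 0.00337 over all genes tested, and without female replicate 4 it was -0.026, beside 0.00819. The intervals still allow a difference as large as that of Pkib for Pkia and Prkacb (toward males) and for Prkar2b (toward females), so a missed threshold does not show equal levels. Without female replicate 4 those of Pkia (-0.39 to 0.081) and Prkacb (-0.051 to 0.23) no longer do, whereas that of Pkig (-0.64 to -0.084) does and that of Prkar2b (-0.18 to 1.16) still does. In simulated data, the same edgeR test called 0 of 200 genes changed 1.5-fold and 58.5% of those changed 2-fold. A difference of the size of Pkib was thus unlikely to be called, so the lack of calls does not show equal levels.

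When female replicate 4 was left out, 1 of the 8 other members (Pkig) had an unadjusted edgeR p under 0.05, against 11.4% of 12724 genes, while 5.73% were higher in males without overlap and 6.03% higher in females without overlap. Without female replicate 2 it was 1 of the 8 as well (Prkar2a, against 7.23% of genes), and 0 in each of the other settings that left out 1 library. In the setting without female replicate 4, Pkig joined Pkib as lower in every female than in every male, and Prkacb was higher in every female. The difference of Pkib was -0.62 ± 0.10 without that library.

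**Figure D2:**
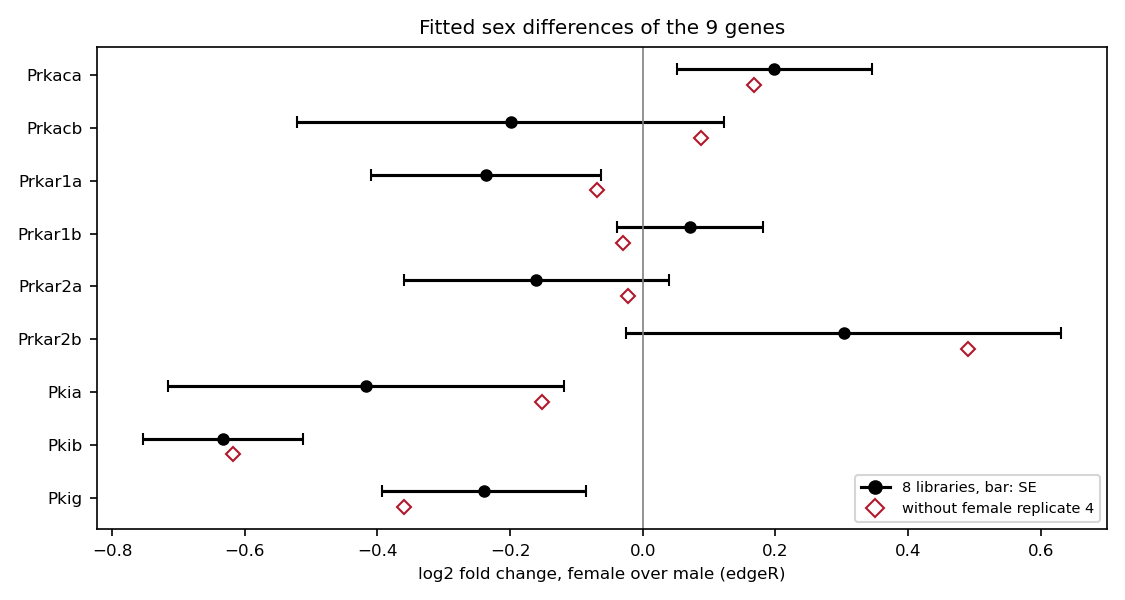
Fitted female over male difference of each gene on the log2 scale (horizontal axis), from all 8 libraries (black points, bars are SE) and without female replicate 4 (open red diamonds). Pkib stays near -0.63 (-0.62 without the library), whereas Prkacb moves from -0.20 to 0.088 and Pkia from -0.42 to -0.15.

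The members did not move together in female replicate 4. Relative to the mean of the other 3 females, its level was 0.280 for Prkacb, 0.330 for Pkia, 0.519 for Prkar2b, 0.565 for Prkar1a and 0.639 for Prkar2a. It was 0.973 for Pkib, 1.10 for Prkaca, 1.31 for Prkar1b and 1.36 for Pkig. Thus in the catalytic, type I and inhibitor classes 1 gene was below every other female and at least 1 other was not. Of the type II genes, Prkar2a was below every other female, whereas Prkar2b was above female replicate 1.

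Transcript length moved with this pattern. Of all tested genes split by longest annotated transcript into 5 equal groups, those with the shortest were 0.361 higher (median, log2 scale) in female replicate 4 than in the other females and those with the longest 0.665 lower. In the 4 male libraries, the same medians stayed between -0.0202 and 0.0222. The 3 members with longest transcripts of 2293 to 2808 bases (Prkaca, Prkar1b and Pkig) were above the other females in that library. Of the 5 of 3378 to 4342 bases, Prkacb, Pkia, Prkar1a and Prkar2a were below them and Prkar2b lay within their range. Pkib, with the longest transcript of all (5581 bases), was the exception, at 0.973. The exon GC content of the 3 was 54.8% to 55.6%, and of the other 6 members 39.7% to 50.7%. The part of length and GC content in the levels of this library was not tested. When edgeR was refitted with offsets for transcript length and GC content, which scale up long transcripts in that library, the difference of Pkib was -0.30 ± 0.21, and with the same offsets but without female replicate 4 it was -0.58 ± 0.10. With these offsets 1 of the 8 other members had an unadjusted p under 0.05, Pkig at -0.36 ± 0.15 (against 9.16% of genes) and, without female replicate 4, at -0.45 ± 0.14 (against 10.7% of genes).

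The levels of different genes were compared after division by length, as reads per kilobase of exon per 1e6 gene reads, within each library. This order was not used to choose the set. Prkar1b led with 325 ± 34.1 (SD, n = 8), followed by Prkar1a with 271 ± 46.2. Far below came Prkar2b with 56.8 ± 23.7, Pkia with 49.4 ± 14.3, Prkacb with 47.6 ± 13.3 and Prkaca with 43.0 ± 6.56. Prkar2a (20.4 ± 4.29), Pkib (12.3 ± 2.97) and Pkig (11.2 ± 1.86) closed the order, and the first gene exceeded the last 29.2-fold (36.7-fold with the longest transcript and 61.4-fold with the mean coding transcript as length).

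Neighbours in this order were compared with an exact two-sided sign-flip permutation test over the 8 libraries, whose smallest possible p is 0.0078125, adjusted over the 8 pairs. Prkar1b exceeded Prkar1a 1.21-fold and Prkar1a exceeded Prkar2b 5.02-fold, each in 8 of 8 libraries with an adjusted p of 0.0156 (exact test). Prkaca exceeded Prkar2a 2.13-fold and Prkar2a exceeded Pkib 1.66-fold, again in 8 of 8 libraries with an adjusted p of 0.0156 (exact test). In these 4 of 8 steps the direction was thus the same in every library. The step of Prkar2a over Pkib holds the Pkib values that chose the set, so nothing is read from its p. The step between the type I genes was small beside its spread, with a mean log2 ratio of 0.28 ± 0.44 (SD, n = 8) and a 2.57-fold lead in female replicate 4. Without that library Prkar1b exceeded Prkar1a 1.09-fold, in 7 of 7 libraries (adjusted p 0.025, exact permutation test).

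The other 4 steps did not pass the threshold. Prkar2b over Pkia was 1.14-fold, in 4 of 8 libraries, with an adjusted p of 0.562 (exact permutation test). Pkia over Prkacb was 1.04-fold, in 7 of 8, with an adjusted p of 0.562, and Prkacb over Prkaca 1.05-fold, in 7 of 8, with an adjusted p of 0.867 (exact permutation tests). Pkib over Pkig was 1.09-fold, ranging from 0.738-fold to 1.30-fold between libraries, in 6 of 8, with an adjusted p of 0.412 (exact permutation test). Without female replicate 4, Prkacb exceeded Prkaca 1.25-fold in 7 of 7 libraries (adjusted p 0.025, exact permutation test) and Pkib exceeded Pkig 1.15-fold in 6 of 7 (adjusted p 0.0417, exact permutation test), so that 6 of 8 steps passed. The order of the 9 genes was the same without that library, and the calls of these 2 steps depended on it. Without male replicate 1, Prkaca moved above Pkia and Prkacb. The step of Pkib over Pkig holds the Pkib values that chose the set. Over all libraries, Pkib was above Pkig in 4 of 4 males and 2 of 4 females, so nothing is read from the p of that step.

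The lower part of the order also rests on the length used. Pkig has a union of exons of 3990 bases but a mean annotated coding transcript of 711.75 bases. With the latter as length Pkig (mean level 62.8) stood beside Prkacb (63.6) below Prkar2b, and Pkib was last. Prkaca over Prkar2a fell to 1.30-fold with that length, in 7 of 8 libraries, with an adjusted p of 0.0625 (exact permutation test), so this step was lost. Pkia and Prkacb changed places with both other lengths, Prkacb leading 1.21-fold with the longest transcript and 1.28-fold with the mean coding transcript, each in 7 of 8 libraries (adjusted p 0.025 and 0.0312, exact permutation tests). With the longest transcript as length, Pkig stood above Pkib in 8 of 8 libraries (adjusted p 0.0156, exact permutation test). This step too holds the Pkib values that chose the set, so nothing is read from its p. The lead of Prkar1b over Prkar1a, of Prkar1a over Prkar2b and the place of Prkar2b as the third gene held, by mean level, with all 3 lengths, although the step of Prkar1b over Prkar1a was 1.34-fold with the longest transcript and 2.05-fold with the mean coding transcript. In the female libraries alone Prkaca, Prkacb and Pkia followed Prkar2b in that order, and in the males Pkia and Prkacb stood above Prkar2b. Pkig stood above Pkib by mean level in the females alone, where Pkib was the higher in 2 of 4 libraries, and Pkib above Pkig in the males, in 4 of 4.

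**Figure D3:**
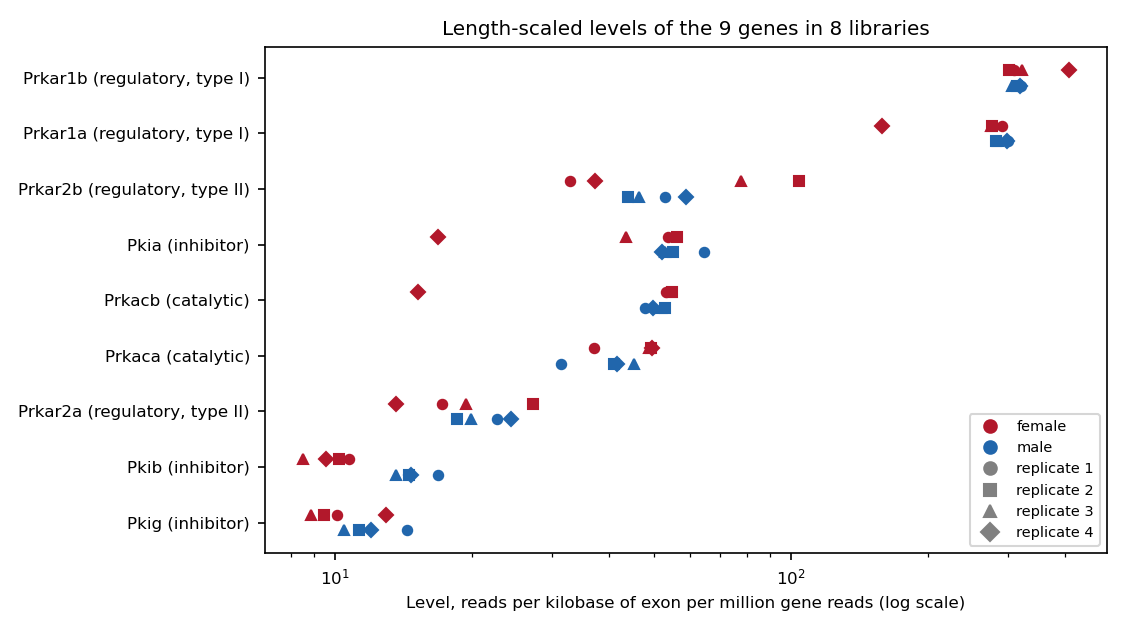
Length-scaled level of each gene in each library (horizontal log axis, reads per kilobase of exon per 1e6 gene reads), ordered by mean level, females in red above males in blue, with 1 marker shape per replicate number. The type I regulatory genes, at 325 and 271 on average, stand clear of the rest, and Pkib and Pkig lie lowest at 12.3 and 11.2.

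On this length-scaled basis the regulatory genes summed to 7.55 ± 1.05 times the catalytic genes (SD, n = 8), between 6.69 and 9.52. With the mean coding transcript as length this was 15.2 ± 3.11 times, so its size rests on the length used. Type I genes made up 88.6% ± 3.53 of the regulatory sum. Within type I, Prkar1b held 51.5% to 53.9% in 7 libraries and 72.0% in female replicate 4, and with the mean coding transcript 64.3% to 81.3% over the 8 libraries. Within type II, Prkar2b held 70.0% to 70.7% in males, while its share ranged from 65.6% to 80.1% in females. Prkacb supplied 52.7% to 60.4% of the catalytic sum in 7 libraries and 23.5% in female replicate 4.

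The inhibitor genes together measured 0.687 ± 0.110 of the catalytic sum in females and 0.933 ± 0.188 in males (SD, n = 4 each), ranging from 0.589 to 0.825 and from 0.795 to 1.21, so that the sexes overlapped. With the mean coding transcript as length these were 1.08 ± 0.240 and 1.32 ± 0.276, again with overlap. Pkib made up 17.6% to 18.6% of the inhibitor sum in males. In females it made up 13.5% to 14.4% in replicates 1 to 3 and 24.3% in replicate 4, where Pkia was low. With the mean coding transcript its share was 10.98% to 14.3% over the 8 libraries. Likewise the ratio of Pkib to Pkia was 0.257 to 0.281 in males, 0.182 to 0.200 in female replicates 1 to 3 and 0.566 in female replicate 4. These ratios contain Pkib and are given with no test.

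The rest of the cAMP pathway was read from 9 lists with 84 genes, of which 73 were tested. At an unadjusted edgeR p under 0.05 there were 3 genes (Gnas and Crtc2 toward females, Bdnf toward males), against 7.11% of all genes, and 0 passed the adjusted p of 0.05. The median difference over the 73 was 0.0295 on the log2 scale, beside 0.00337 over all genes, and 40 of 73 were above 0.

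Upstream of the kinase, 0 of 8 tested adenylyl cyclases had an unadjusted p under 0.05. The highest by level, Adcy3, reached 5.13 ± 0.958 reads per kilobase per 1e6 (SD, n = 8). Over 22.1% of its exon length it overlaps Cenpo on the opposite strand, where reads of Adcy3 and Cenpo cannot be told apart here. Gnas, which encodes the Gs alpha subunit that activates cyclases, measured 927, 1469, 1458 and 1600.0 CPM in females and 936, 863, 901 and 1031 CPM in males. Female replicate 1 fell in the male range, and the other 3 females lay above it. Its difference was 0.53 ± 0.16, with an adjusted p of 0.613 (edgeR), and 0.68 with an adjusted p of 0.0205 (edgeR) without female replicate 1, while the adjusted p ranged from 0.0205 to 1 over the 17 alternatives. Over 22.0% of its exon length Gnas overlaps genes on the opposite strand, among them Nespas.

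Of 15 tested phosphodiesterases, which break down cyclic nucleotides, 0 had an unadjusted p under 0.05, with differences from -0.40 to 0.57. Pde2a, the highest, averaged 27.4 ± 5.27 reads per kilobase per 1e6 (SD, n = 8). Of the 16 tested anchoring proteins, which tether PKA holoenzymes at membranes and channels, 0 passed, and Akap4 and Akap14 had no reads in any library. Akap12 was the highest with 93.0 ± 23.3 (SD, n = 8), and its level in female replicate 4 was 232 CPM against 606 to 713 CPM in the other females.

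Among proteins that bind cAMP outside PKA, 0 of 3 tested had an unadjusted p under 0.05, with Popdc3 highest at 28.9 ± 4.18 reads per kilobase per 1e6 (SD, n = 8), and 0 of 3 related kinases did, with the cGMP-dependent kinase gene Prkg1 highest at 34.2 ± 11.3. Of 8 substrates, 0 did. The vesicle protein gene Syn1 was the highest substrate at 241 ± 23.0 (SD, n = 8), while Scn10a, for Nav1.8, differed by -0.17 and Trpv1 by -0.41 on the log2 scale, with adjusted p of 0.825 and 0.749 (edgeR).

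Downstream, the CREB coactivator gene Crtc2 measured 44.9 ± 6.62 CPM in females and 31.4 ± 5.33 CPM in males (SD, n = 4 each), a difference of 0.50 ± 0.16 with an adjusted p of 0.637 (edgeR). Its 4 females spanned 35.7 to 51.5 CPM and its males 27.9 to 39.3 CPM, so they overlapped. Of the 10 tested CREB target genes, Fos was the highest by level, with 54.5 to 299 CPM in females.

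Bdnf, a neurotrophin gene with CREB sites, was the pathway gene nearest to the threshold. It measured 68.6, 63.2, 70.4 and 79.2 CPM in females and 159, 120.5, 105 and 149 CPM in males. The sexes did not overlap, as with Pkib. Its difference was -0.94 ± 0.15 with an adjusted p of 0.0597 (edgeR), and the adjusted p fell under 0.05 with DESeq2, with no low-count filter and without female replicate 1, female replicate 4 or male replicate 3. Over the 17 alternatives it ranged from 3.97e-05 (DESeq2) to 1 (edgeR with the glial marker score).

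**Figure D4:**
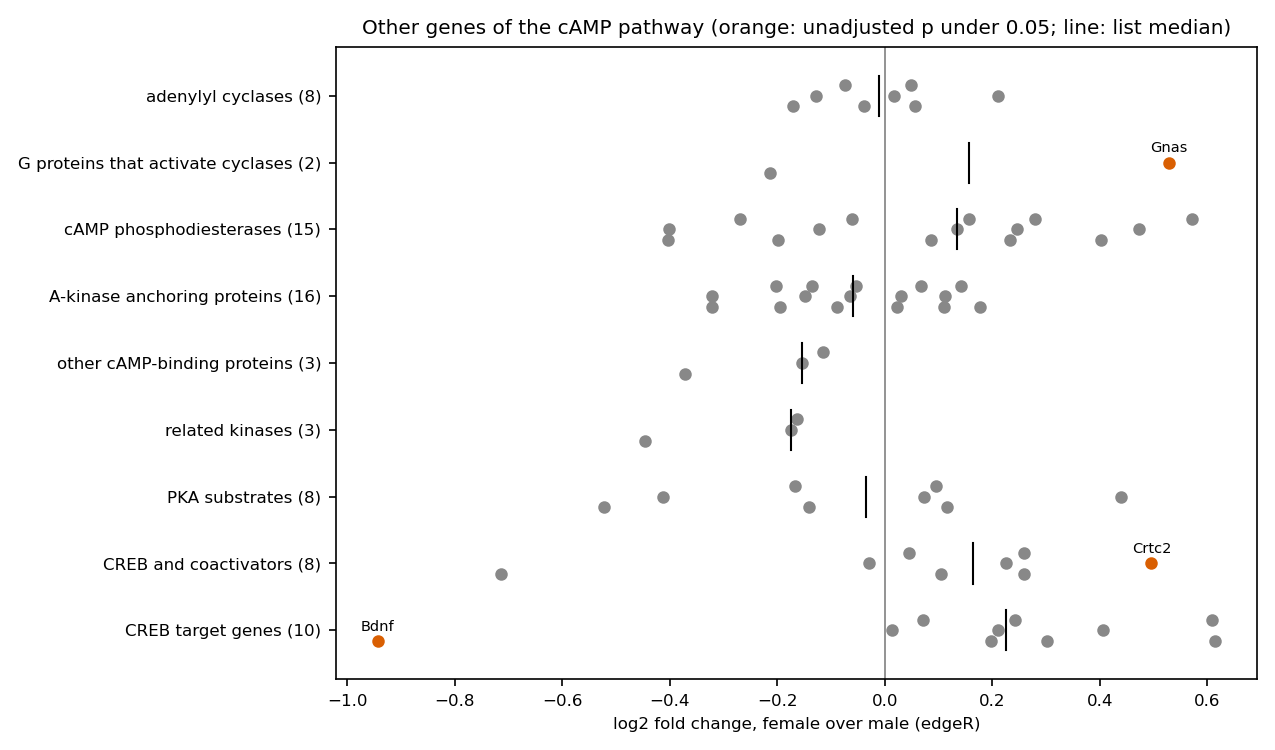
Fitted female over male differences on the log2 scale (horizontal axis) of the 73 tested genes of 9 cAMP pathway lists, 1 point per gene and 1 row per list with its number of genes in brackets, orange where the unadjusted edgeR p is under 0.05, and a black line at each list median. Only Gnas and Crtc2 (to the right, 0.53 and 0.50) and Bdnf (to the left, -0.94) are orange, and 0 genes passed the adjusted threshold.

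Markers of other cells and of neuron classes differed between these libraries along with Pkib. Peptidergic neuron genes had 4 of 5 higher in males at an unadjusted p under 0.05 (Calca, Calcb, Tac1 and Adcyap1), against 7.11% of all genes in either direction, and the list summed to 4567 to 6070 CPM in females and 5442 to 7756 CPM in males. Without female replicate 4 that sum was 4567 to 5352 CPM in females, below every male. In that setting 5.73% of single genes were higher in males without overlap. Large myelinated neuron genes had 2 of 5 higher in females (Nefh and Ntrk3), at 936 to 2168 CPM against 447 to 1044 CPM. None of the 10 pan-neuronal, 5 non-peptidergic or 3 low-threshold C-fibre and cold neuron genes had an unadjusted p under 0.05.

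Satellite glia and fibroblast lists were higher in every female; of all single genes 3% were higher in every female and 7.11% had an unadjusted p under 0.05. Satellite glia genes summed to 9699 to 12585 CPM in females and 3755 to 9324 CPM in males, without overlap, and 2 of 7 had an unadjusted p under 0.05 (Apoe and Sox10). Most of that sum was Apoe, at 8940.1 ± 1302 CPM in females and 5818 ± 2007 CPM in males (SD, n = 4 each), the 1 gene of the 7 whose sexes did not overlap. The other 6 together reached 1403 to 1712 CPM in females and 687 to 1528 CPM in males, with overlap. Fibroblast genes had 3 of 4 tested at that p (Col1a2, Dcn and Lum), with 76.2 to 123 CPM against 40.1 to 69.0 CPM, also without overlap. Endothelial and pericyte genes (22.7 to 32.3 and 24.6 to 29.2 CPM) had 0 of 2. Macrophage genes summed to 4.54 to 8.75 and 0.682 to 4.60 CPM, with overlap, and Ptprc had at most 2 reads in any library. Only Cd74 of the 6 was tested. Its female levels carried it past the filter (3.44 to 6.67 CPM against 0.136 to 2.97 CPM in males), so nothing is read from its test. Aif1 was higher in males on average (0.700 against 0.343 CPM), near the limit of detection.

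When the fit held a glial marker score, itself different between the sexes, the difference of Pkib was -0.46. The part of glial content and of neuron class in the level of Pkib was not tested.

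**Figure D5:**
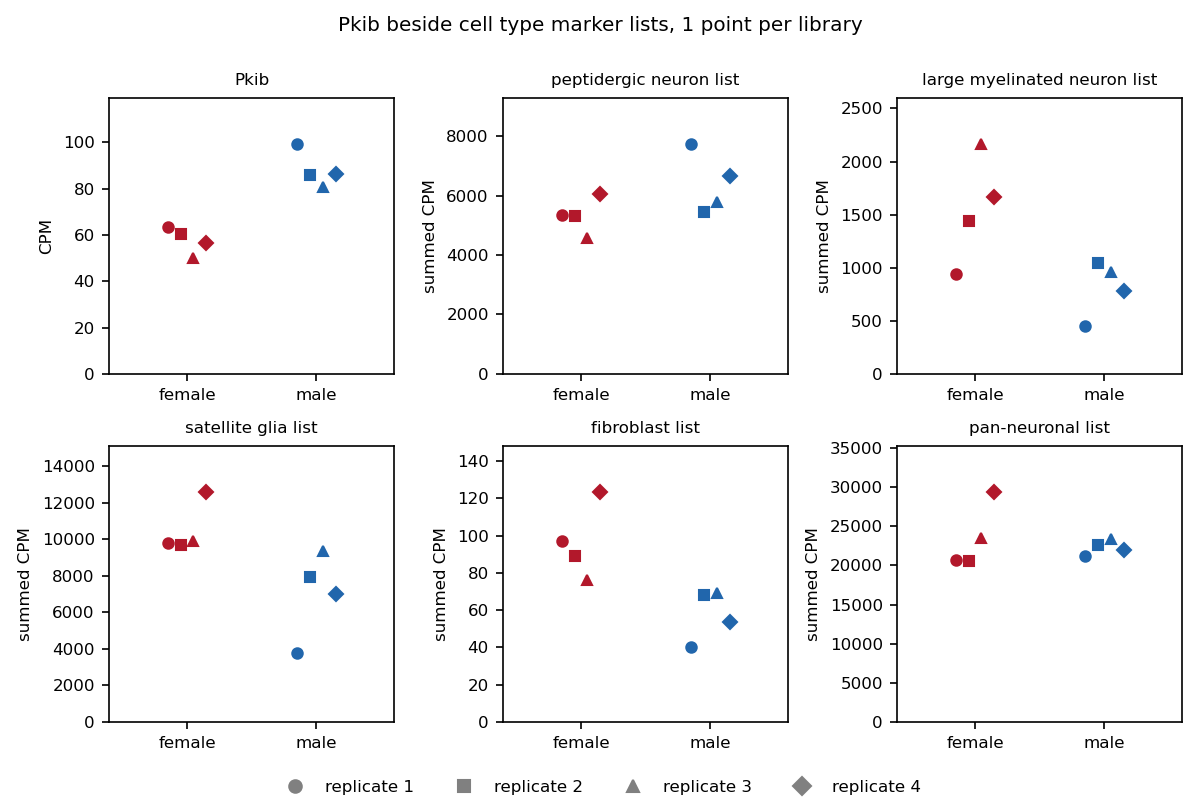
Pkib and the summed level of 5 marker lists in each library (vertical axes, CPM from 0), females in red and males in blue, with 1 marker shape per replicate number. Pkib is higher in every male, and the satellite glia and fibroblast lists are higher in every female. The large myelinated and pan-neuronal lists overlap between the sexes, and the peptidergic list does so only through female replicate 4 (diamond, 6070 CPM).

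The genes whose pattern was most like that of Pkib over the 8 libraries were ranked by Pearson's r of the TMM-scaled log2 CPM among 12509 genes, as a description. They were Efha2 (r = 0.973, Spearman's rho 0.929), Arxes2 (0.964, 0.905), Adamts8 (0.964, 0.952), Casp1 (0.963, 0.952) and Vbp1 (0.962, 0.857). Efha2 encodes an EF-hand protein, Adamts8 a secreted metalloprotease, Casp1 the inflammatory caspase and Vbp1 a prefoldin subunit. Because Pkib was higher in males, this ranking favours genes that were so too, and their direction is no separate result. All 5 were higher in males on average, Adamts8 from 9.57 ± 1.68 to 21.2 ± 3.69 CPM and Efha2 from 123 ± 6.79 to 147 ± 3.08 CPM (SD, n = 4 each). The libraries share their sex groups, and after centring each sex r was 0.757, 0.762, 0.712, 0.910 and 0.706.

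Among the members, r with Pkib was highest for Pkig (0.66, Spearman's rho 0.643), Pkia (0.56, rho 0.595) and Prkar1a (0.51), and by rho Prkar1a came first (0.857). Prkaca ran against Pkib (r = -0.69, rho -0.810, and r = -0.83 after centring each sex). Replicate 1 of each sex had the highest Pkib and the lowest Prkaca of its sex. Without the 2 libraries whose Pkib lay farthest from the median, male replicate 1 and female replicate 3, r was 0.16 for Pkig, 0.59 for Pkia, 0.65 for Prkar1a and -0.34 for Prkaca, so the values of Pkig and Prkaca rest on those libraries.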

How the data were processed

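Sorted WGA-488-labelled DRG neurons of 4 female and 4 male mice were measured by SMART-seq2 RNA sequencing. The authors aligned single reads to mm9 with TopHat2 and deposited raw HTSeq counts per gene symbol. Versions, annotation release and strand option are not given in the sources used here. Groups and replicate numbers came from the labels.

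The 5 summary lines were dropped, and CPM is reads per 1000000 gene reads. Of 22609 symbols, 21627 matched GENCODE M1 (NCBIM37) directly and 87 by synonym, and lengths are unions of exons. Depth was 4.80 to 7.33 M gene reads (1e6 reads), and 3 reads were the floor. Reads carry no molecular identifiers, so floors cover counting error only.

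Sexes were compared in edgeR 4.0.16 (R 4.3.3) by the quasi-likelihood F test, with TMM scaling, the default filter and sex alone in the model, with Benjamini-Hochberg adjustment over 12518 genes, a threshold of 0.05 and female over male log2 fold changes. Level order used exact sign-flip tests. The code was tested on simulated data with 200 changed genes, of which edgeR called 0 at 1.5-fold, 58.5% at 2-fold and 97.5% at 4-fold.

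Named pathway genes are the highest by level of each list and those with unadjusted p under 0.05 (up to 4 per list), and the 5 most correlated with Pkib. Scn10a, Trpv1 and the marker genes named were added to these. The members and lists were chosen with earlier results of these data known. Alternatives were DESeq2 1.42.0, limma-voom (3.58.1), other scalings, no filter, the replicate block, a glial covariate, length and GC offsets, other gene lengths and leaving out each library. Same-numbered females and males correlated in their deviations by 0.0939, -0.109, 0.144 and 0.00476, so numbers were not taken as pairs. One marker list is not reported here. Other preparations of the study were not analysed here.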

Additional observations from a re-analysis of the deposited data

Results flagged for a closer look

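Among the 38 groups of 4 libraries examined (9 members and 10 named pathway genes in each sex), 6 held a library whose gap to its nearest neighbour exceeded the Dixon limit for 4 samples. Chance alone flags about 1 in 20 groups, or 1.9 here.

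On the log2(CPM + 1) scale, Prkacb was 6.39 in female replicate 4 (83.0 CPM against 291 to 300.2 CPM in the other females). Prkar1a was 9.51 in the same library (729.6 CPM against 1263 to 1338 CPM), and the anchoring protein gene Akap12 was 7.87 (232 CPM against 606 to 713 CPM). Prkaca was 6.44 in female replicate 1 (85.6 CPM against 113 to 115 CPM), and Gnas was 9.86 there (927 CPM against 1458 to 1600.0 CPM). Crtc2 was 5.33 in male replicate 4 (39.3 CPM against 27.9 to 29.5 CPM).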

How the results depend on the processing

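Pkib stayed lower in females in every setting run, and 0 of the 8 other members were called in any. The number of genes called (11) was 48 with DESeq2, 6 with the replicate block, 5 with the glial score, and 7 to 84 when 1 library was left out (7 without male replicate 4, 84 without female replicate 1). The pathway count at an unadjusted edgeR p under 0.05 was 3 of 73, beside 7.11% of all genes. It was 6 with the block (6.97% of all genes), 1 with the glial score (1.84%) and 6 with length and GC offsets (9.16%). Without 1 library it was 3 to 7 (4.66% to 11.4%). The share over all genes moved as well, so these changes are not read as a result about the pathway. The block changed no call of a member. Pkib moved to -0.46 with the glial score and to -0.30 with length and GC offsets, which were chosen after seeing the data, and ranged from -0.68 to -0.56 without 1 library.

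Directions turned for Pkig (0.0041), Prkaca (-0.14), Pde2a (0.050) and Popdc3 (0.045) with the glial score, and for Prkar1b (-0.071), Adcy3 (-0.0063) and Syn1 (-0.066) with length and GC offsets. Adcy3 also turned with limma-voom (-0.020) and the block (-0.0099). With offsets and without female replicate 4, Prkacb was 0.057, Prkar1b -0.13, Adcy3 -0.018 and Fos -0.11. Leaving out 1 library moved Prkacb from -0.32 to 0.088, Prkar1b from -0.030 to 0.11, Prkar2b from -0.056 to 0.52, Adcy3 from -0.16 to 0.15, Pde2a from -0.16 to 0.12, Akap12 from -0.35 to 0.050 and Fos from -0.065 to 0.60; the cause was not tested.

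The number of level steps past the threshold was 4 to 6 in every setting, steps that hold Pkib included. Females alone and males alone are too few for that test, so only their order was given. Every member had at least 170 reads in each library.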
